A study of Mus musculus with 4 samples.

Results

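The genes described here are 10 transcription factors and co-factors of the B lineage: Ebf1, Pax5, Foxo1, Ikzf1, Ikzf3, Spib, Pou2af1, Lef1, Bcl11a and Irf4. The set is defined by gene name, with earlier results of these data known, and all 10 are among the 32285 genes counted in each library. Each is annotated as protein coding in GENCODE M21 (GRCm38). Ebf1 lies at chr11:44617317-45008091, Pax5 at chr4:44524757-44710487, Foxo1 at chr3:52268336-52353221, Ikzf1 at chr11:11685003-11772926 and Ikzf3 at chr11:98464902-98546031. Spib lies at chr7:44525993-44532071, Pou2af1 at chr9:51213708-51240080, Lef1 at chr3:131110471-131224356, Bcl11a at chr11:24078056-24174123 and Irf4 at chr13:30749226-30766976. A count covers the whole gene, so exons, introns and untranslated regions were not told apart.

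The study sequenced single cells of mouse bone marrow collected 10 weeks post-transplantation, after a sort for CD45.2, an antigen variant that separates donor from host leukocytes. There is 1 library for each of 4 groups. A library of control cells and a library of Mll3/4 deleted cells were sorted as Kit+, as was a library named Mll3/4SI, and a further control library was sorted as B220lo. The genes Kmt2c and Kmt2d encode Mll3 and Mll4, methyltransferases that mark enhancers on histone H3. Kit is the receptor of stem cell factor on early blood progenitors, and a low level of B220 is found on precursors of B cells, among others. The labels give neither the strain, the way the genes were deleted, what SI stands for, nor how many mice were pooled. The control for the deleted B-lineage cells differs from them in its sort (B220lo against Kit+). With 1 library per group there is no replicate, so no test was made. Every interval is a 95% interval for counting error alone.

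B cells are made in the bone marrow from lymphoid progenitors that switch on Ebf1 and then Pax5, a pair of factors that commit the cell to the lineage. Foxo1 acts with them and is needed for the recombinase genes Rag1 and Rag2. Ikaros (Ikzf1) acts from the stem cell stage onward, and its relative Aiolos (Ikzf3) rises when the pre-B-cell receptor signals. Irf4 and the ETS factor Spi-B (Spib) work at and after that step, in light-chain rearrangement and in maturing B cells, and Spi-B is also a factor of plasmacytoid dendritic cells. Lef1 is a Wnt pathway factor of early B and T cells, Bcl11a is needed for lymphoid progenitors, and OBF-1 (Pou2af1) is the co-activator of the octamer factors. Progress along this path can be read from the immunoglobulin genes: the heavy chain (IGH) is rearranged first, then a light chain (IGK or IGL). Deposited contigs, assembled receptor transcripts of single cells, therefore place a cell as having none, IGH only, or IGH plus light chain.

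The genes that differed most between Mll3/4 deleted and control B-lineage cells below were Ikzf3, Spib and Irf4, which were low, and Foxo1, which was high. The 250 bases before the start of 3 of them are shown so that these genes can be seen as sequence, from RefSeq on GRCm38.p6, 5′ to 3′ along the gene. The table used has an entry for 9 of the 10 members, with 14 starts in all, and none for Ikzf3. Capitals mark matches, on either strand, to short motifs of the factors themselves. The Foxo1 stretch is chr3:52268087-52268336 on the plus strand, the Spib stretch chr7:44532072-44532321 on the minus strand and the Irf4 stretch chr13:30748983-30749232 on the plus strand.
Foxo1 promoter: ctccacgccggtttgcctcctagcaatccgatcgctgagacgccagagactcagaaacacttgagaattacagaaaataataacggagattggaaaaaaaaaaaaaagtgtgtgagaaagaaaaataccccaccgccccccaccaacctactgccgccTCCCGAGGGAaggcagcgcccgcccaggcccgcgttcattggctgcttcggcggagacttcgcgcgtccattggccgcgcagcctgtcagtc
Spib promoter: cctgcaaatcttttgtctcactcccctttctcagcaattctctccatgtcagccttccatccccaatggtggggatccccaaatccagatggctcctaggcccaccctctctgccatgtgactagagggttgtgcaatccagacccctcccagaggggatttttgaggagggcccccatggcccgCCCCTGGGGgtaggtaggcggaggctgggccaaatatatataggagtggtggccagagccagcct
Irf4 promoter: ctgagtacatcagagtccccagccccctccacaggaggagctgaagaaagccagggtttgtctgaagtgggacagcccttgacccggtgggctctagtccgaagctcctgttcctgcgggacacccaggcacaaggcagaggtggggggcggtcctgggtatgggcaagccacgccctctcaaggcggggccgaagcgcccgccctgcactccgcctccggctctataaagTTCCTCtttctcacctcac

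In the Foxo1 stretch the capitals are an EBF motif, TCCC and GGGA with 2 bases between them, which 0.779% of the 32851 promoters in the table hold. No other of the 14 member promoters held it. In the Spib stretch they are a pair of overlapping matches to its shorter form, CCCNNGGG, present in 11.8% of promoters, which also matched in Foxo1, inside the longer motif, and in Ikzf1. In the Irf4 stretch they are an ETS core, GAGGAA on the opposite strand, present in 23.3% of promoters and also found in Ebf1 and Lef1. An Ikaros core, TGGGAA, held by 21.6% of promoters, lay before Ebf1 and Bcl11a, and an interferon-type core, GAAA repeated after 2 bases, held by 2.98%, lay before Ebf1. The LEF/TCF letters CTTTGAA (4.46% of promoters), the FOXO letters GTAAACA (3.17%) and the octamer ATGCAAAT (1.60%) matched in none of the 14 windows. These are letter matches in a short window, not measured binding.

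After filters on UMIs, genes and mitochondrial share, 11891 control Kit+, 14915 deleted, 12081 SI and 16329 control B220lo cells were kept, with medians of 12199, 6832, 12349 and 3354 UMIs (unique transcript molecules). The deleted library stood apart. It held 149 CPM (UMIs scaled to a library total of 1000000) of 4 Y-linked genes and 0.315 CPM of Xist, against 0.0245 to 0.518 and 422 to 548 CPM in the others, so genotype and sex cannot be told apart. Kmt2c stood at 51.6 CPM in it, against 58.5 in control Kit+ and 147 in control B220lo cells. Kmt2d stood at 19.95 CPM, against 24.1 and 41.6. Reads near the transcript start do not show whether an exon is gone, so these values check nothing. Kit itself was 217, 355 and 252 CPM in the 3 Kit+ libraries and 15.8 in the B220lo library, as sorted. Any 2 libraries shared 214 to 345 barcodes, 345 of them between the deleted and B220lo libraries.

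Across whole libraries, the deleted Kit+ cells carried 8 of the 10 factors at 2-fold or more of the control Kit+ level, where 11.8% of all tested genes were called higher and 8.65% lower. Ebf1 was at 1721 CPM (1714 to 1728) against 1.95 CPM (1.74 to 2.18), and Pax5 at 294 against 0.612 CPM. Foxo1 was at 887 against 6.07 CPM, a ratio of 146 (137 to 156). Lef1 stood at 386 against 0.471 CPM and Pou2af1 at 232 against 0.446. These 5 genes were low in control Kit+ cells. Ikzf1 and Bcl11a were not low there, and were about 2-fold higher: Ikzf1 at 328 against 163 CPM, Bcl11a at 225 against 108, on or close to the 2-fold line. Irf4 reached 5.05 CPM from 0.122. Ikzf3 (0.791 against 0.391 CPM) and Spib (0.530 against 0.324 CPM) did not pass 2-fold on the log2(CPM + 1) scale used for calls. With 10 in place of 1 CPM added, 5 members were called, without Ikzf1, Bcl11a and Irf4, where 4.94% of all tested genes were called higher and 3.38% lower.

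**Figure D1:**
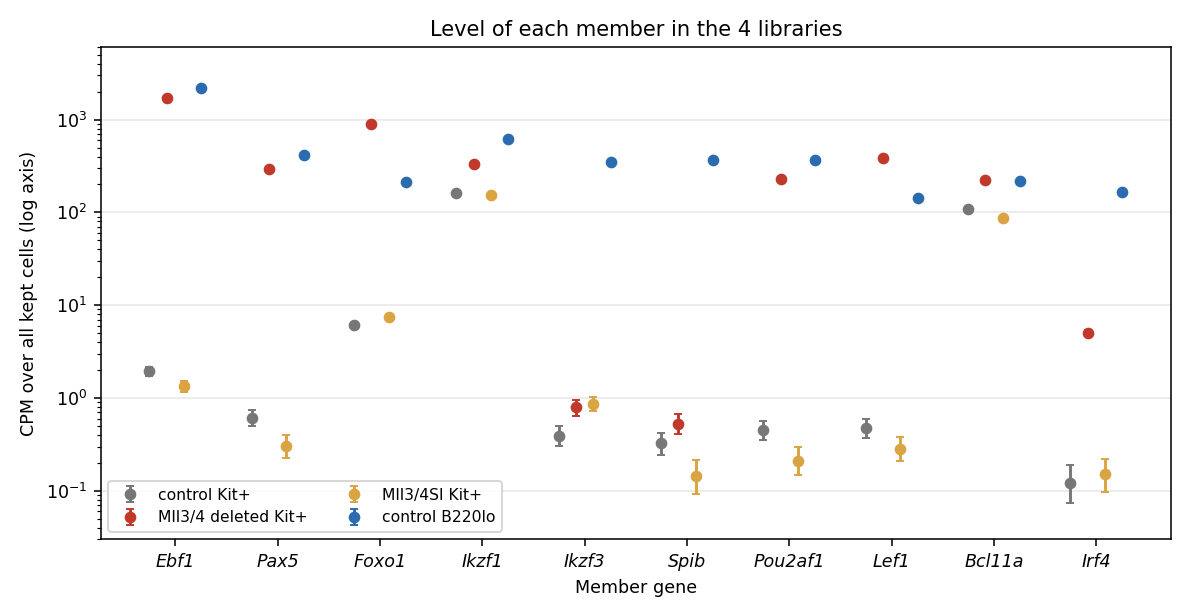
Level of each of the 10 genes over all kept cells of the 4 libraries, in CPM on a log axis; bars are exact Poisson 95% intervals for counting error. The deleted Kit+ library (red) lies far above the other Kit+ libraries for Ebf1, Pax5, Foxo1, Pou2af1 and Lef1, and with them, below 1 CPM, for Ikzf3 and Spib.

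In the control B220lo library, all 10 genes were present: Ebf1 at 2211 CPM, Ikzf3 at 347, Spib at 365 and Irf4 at 168. The order over libraries was control B220lo, deleted, then the other Kit+ libraries for Ebf1, Pax5, Ikzf1, Pou2af1 and Irf4, and deleted before B220lo for Foxo1, Lef1 and Bcl11a. Ikzf3 and Spib were below 1 CPM in each of the 3 Kit+ libraries. Bcl11a at 225 CPM in deleted and 219.96 CPM in B220lo cells had overlapping counting intervals. Between the SI and control Kit+ libraries, 0 of the 9 members with enough UMIs passed 2-fold on the log2(CPM + 1) scale. Of all tested genes, 2% were called higher and 0.799% lower. Pax5, Lef1, Pou2af1, Ikzf3 and Spib, below 1 CPM in control Kit+ cells, could not be called lower on that scale even at 0 UMIs. For them the count of calls cannot show a loss. Their log2 ratios on it ran from -0.31 (Pax5) to 0.42 (Ikzf3), and plain CPM ratios lay further from 1. In SI cells Ebf1 was at 1.34 CPM, Foxo1 at 7.46, Ikzf1 at 156 and Bcl11a at 86.2, against 1.95, 6.07, 163 and 108 in control Kit+ cells. Irf4, with 25 UMIs in SI and 20 in control Kit+ cells, had too few for a call.

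The library difference goes with the number of B-lineage cells. Cells with 2 or more UMIs of Cd79a, a signalling chain of the B-cell receptor, made up 93.8% of the deleted library (13992 cells) and 77.03% of the B220lo library (12578 cells). They were 0.488% of control Kit+ cells (58) and 0.257% of SI cells (31). What follows therefore compares Cd79a-positive cells with each other. Thinned to 2000 UMIs each, deleted Cd79a-positive cells held a UMI of 3.98 ± 1.38 members (mean ± SD over 13616 cells), with at most 8 of 10 in a cell. Control B220lo cells held 5.001 ± 1.78 (10977 cells), with up to 10 of 10.

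By contigs, the deleted Cd79a-positive cells almost all lacked a light chain. Of them, 10636 had no contig, 3322 had IGH only, 21 had IGH plus a light chain and 13 a light chain only. In the B220lo library these numbers were 3487, 1680, 6814 and 597. A missing contig can also mean that none was assembled. Kit and Dntt, the terminal transferase of early B precursors, were high in both deleted states (362 and 375 CPM of Kit, 1252 and 1311 CPM of Dntt). In B220lo cells Kit was at 20.6 and 3.45 CPM and Dntt at 410.5 and 32.04 CPM in the same states. The states were thus not matched in stage between the libraries.

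Among the factors that commit the lineage, Ebf1 and Pax5 were present in deleted cells within 2-fold of the control level, while Foxo1 was more than 3-fold higher. In cells with no contig, Ebf1 was at 1829.6 CPM (1821 to 1839) in deleted and 2943 CPM (2918 to 2969) in B220lo cells, a ratio of 0.622. Pax5 was at 317 against 460.1 CPM (ratio 0.689). Foxo1 was at 967 CPM (960.4 to 973) against 259.5 CPM (252 to 267), a ratio of 3.73 (3.62 to 3.84). With IGH only, the values were 1884 against 2299 CPM for Ebf1, 326 against 418 for Pax5 and 951 against 182 for Foxo1, whose ratio was 5.23 (4.99 to 5.48). At 2000 UMIs per cell, 83.2% of deleted and 42.5% of B220lo cells with no contig held a Foxo1 UMI (97.8% and 59.9% before thinning). For Ebf1 the thinned shares were 90.04% and 86.8%.

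The factors of the later stages were nearly absent from the deleted cells. Ikzf3 had 47 UMIs in 10636 deleted cells with no contig, 0.530 CPM (0.390 to 0.705), against 4995 UMIs and 279 CPM in B220lo cells. Spib had 43 UMIs, 0.485 CPM (0.351 to 0.654), against 5237 UMIs and 293 CPM. Irf4 was low rather than absent, at 4.9998 CPM (4.55 to 5.49) against 180.3 CPM. The values were alike in cells with IGH only: Ikzf3 was at 0.648 against 276 CPM, Spib at 0.444 against 281 and Irf4 at 6.65 against 220.1. The ratios in that state were 0.00235 (0.00141 to 0.00368) for Ikzf3, 0.00158 (0.000840 to 0.00271) for Spib and 0.0302 (0.0260 to 0.0350) for Irf4.

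In cells with no contig thinned to 2000 UMIs, Ikzf3 was seen in 0.116% of deleted and 39.8% of B220lo cells, Spib in 0.116% and 46.4%, and Irf4 in 1.17% and 33.1%. Before thinning these shares were 0.385% and 53.9%, 0.357% and 63.1%, and 3.44% and 48.6%, although the deleted cells were the deeper ones. In granulocyte-like cells, which should lack these genes, 2.39% of thinned B220lo cells held an Ikzf3 UMI, 2.87% a Spib UMI and 1.44% an Irf4 UMI (219 cells before thinning, median 8239 UMIs). The B220lo shares in B-lineage cells lie far above that background. In 463 granulocyte-like deleted cells Ikzf3 and Spib had 0 UMIs, which allows up to 0.372 CPM (3 counts).

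The remaining members differed less. Ikzf1 was at 345 against 612 CPM with no contig (ratio 0.565) and 343 against 607 with IGH only (ratio 0.565), so Ikzf3's relative was present in the same cells. Pou2af1 was at 252 against 401 CPM and 256 against 455. Lef1 was higher in deleted cells, 413 against 252 CPM with no contig and 438 against 177 with IGH only, where the ratio of 2.47 (2.35 to 2.60) passed 2-fold. Bcl11a was at 239.7 against 193 CPM and 234 against 119, the latter a ratio of 1.97 (1.85 to 2.09), just inside the line; over 14 other settings its log2 ratio ran from 0.90 to 1.14.

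Counted together, 1 member (Foxo1) was called higher and 3 (Ikzf3, Spib, Irf4) lower in deleted cells with no contig, where 10% of all tested genes were called higher and 12.8% lower. With IGH only, 2 members (Foxo1, Lef1) were higher and the same 3 lower, against 15.7% and 9.64% of tested genes. The median log2 ratio of the 10 members was -0.68 with no contig and -0.59 with IGH only, beside -0.05 and 0.00 for all tested genes. As a mean of each cell's CPM, Ikzf1 also passed 2-fold lower with no contig (log2 ratio -1.02), and with IGH only Pou2af1 passed lower (-1.04) and Bcl11a higher (1.14). In that setting 12.8% of tested genes were higher and 14.04% lower with no contig, and 17.9% and 11.3% with IGH only. Lef1 with IGH only then had a log2 ratio of 2.02 in place of 1.301, and Foxo1 of 1.79 in place of 2.38.

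**Figure D2:**
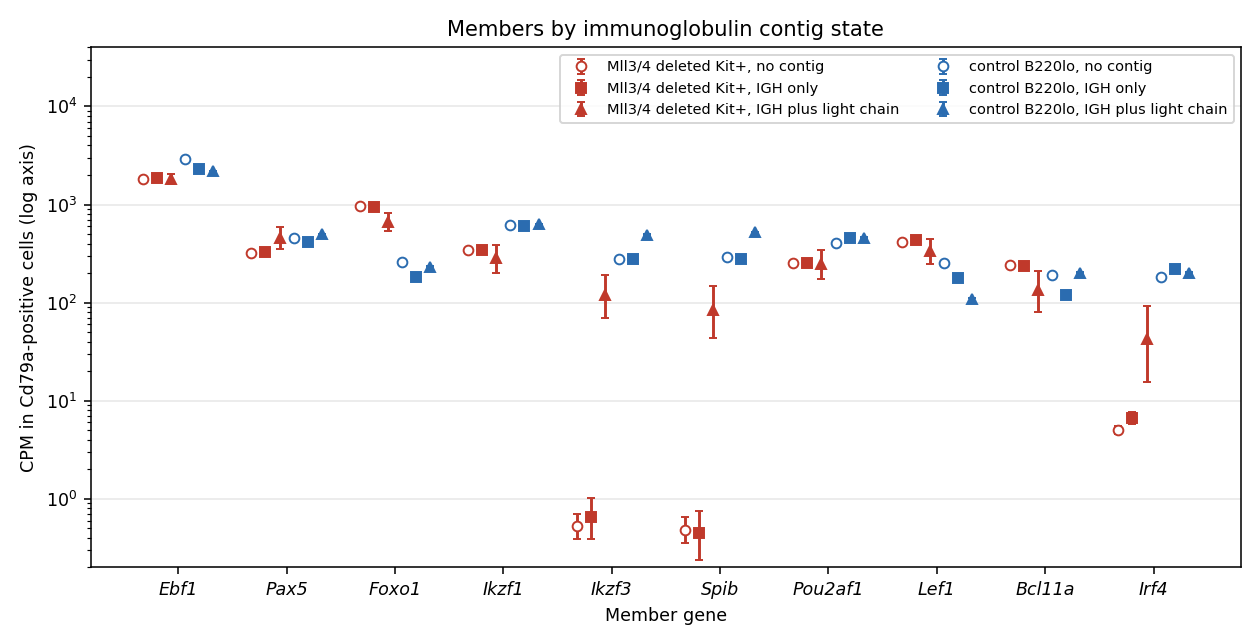
CPM of each member in Cd79a-positive cells (2 or more Cd79a UMIs) of the deleted (red) and B220lo (blue) libraries by contig state, on a log axis, with exact Poisson 95% intervals. Ikzf3 and Spib lie below 1 CPM in the 2 large deleted states and at 120 and 84.8 CPM in the 21 deleted cells with IGH plus a light chain.

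Other measures moved with this comparison. Granulocyte markers summed to 2209.5 CPM in deleted and 4933 CPM in B220lo cells with no contig, plasmacytoid dendritic markers to 14.5 and 459 CPM, and T and NK markers to 29.9 and 331 CPM. Ribosomal protein genes had medians of 19.1% and 14.3% of UMIs, and the nuclear RNA Malat1 was at 4271 and 6532 CPM. Restricting both sides to cells with at least 3 B-lineage markers of 2 or more UMIs, and more such markers than of any other class, left 10500 and 2944 cells. Among these, Ikzf3 was at 0.541 against 289 CPM, Spib at 0.495 against 315, Irf4 at 5.06 against 197 and Foxo1 at 981 against 278 (ratio 3.53), with Mpo at 513 and 90.6 CPM. The part of these markers and of RNA quality in the differences was not tested.

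Since Kit and Dntt differed between the libraries, both sides were also cut to cells with these early transcripts, a choice made after the data were seen. Among cells with no contig and at least 2 Dntt UMIs (9905 deleted, 717 B220lo), 5 members that had differed came within 1.2-fold of each other. Ikzf1 was at 343 against 355 CPM, Pax5 at 318 against 337 and Pou2af1 at 255 against 261. Bcl11a was at 237 against 229 CPM and Lef1 at 416 against 475. The Ebf1 ratio was 0.704 here and 0.804 in cells with at least 1 Kit UMI, beside 0.622 over all cells with no contig. Pou2af1 was slightly higher in deleted than in B220lo cells of the Kit selection (253 against 220.1 CPM), against its direction over all cells. Lef1 also turned: in the Dntt selection it was slightly lower in deleted cells, with a ratio of 0.875 (0.842 to 0.911).

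The 4 other genes kept their 2-fold calls in the Dntt and Kit selections, where 9.39% and 9.76% of all tested genes were higher and 9.14% and 8.87% lower. In the Dntt selection Foxo1 was at 966 against 250.02 CPM, a ratio of 3.87 (3.67 to 4.08). In the Dntt-positive B220lo cells the late factors were themselves lower than in all B220lo cells with no contig, and still far above the deleted cells: Ikzf3 at 39.95 against 0.501 CPM, Spib at 93.7 against 0.489 and Irf4 at 64.4 against 4.89. With at least 1 Kit UMI on both sides (8959 and 210 cells), the B220lo values were 39.01 CPM for Ikzf3, 55.7 for Spib and 50.2 for Irf4, and the Foxo1 ratio was 3.93. Mpo was at 604 CPM in deleted and 217 in B220lo cells of the Dntt selection, and at 808 and 1699.8 in the Kit selection. The part of such transcripts, and of the B220lo background seen in granulocyte-like cells, in these values was not tested. Among IGH-only cells the Dntt selection left 3140 deleted and 49 B220lo cells, under the 50 needed for a call. There Foxo1 had a ratio of 4.63 (3.86 to 5.61), Ikzf3 of 0.00417 and Spib of 0.00251, and Ikzf1 at 0.615, Bcl11a at 1.63 and Lef1 at 1.46, and Pax5 at 0.825 and Pou2af1 at 0.829, did not come within 1.2-fold.

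**Figure D3:**
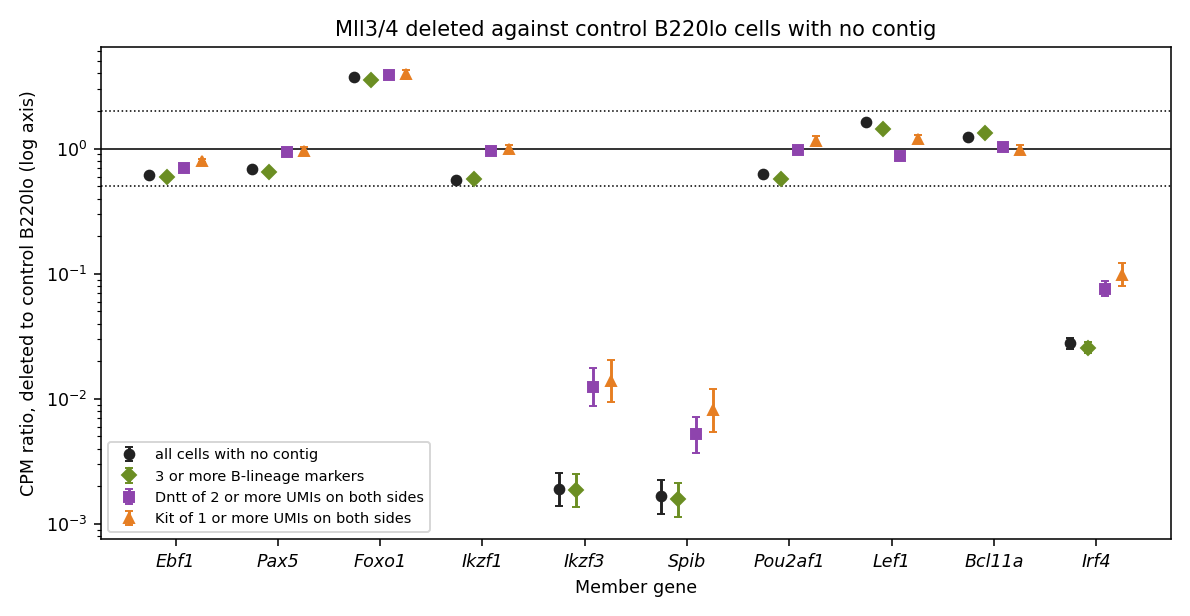
CPM ratio of deleted to control B220lo cells with no contig for each member, on a log axis, over all such cells and in 3 narrower selections; bars are exact 95% intervals and dotted lines mark 2-fold. Foxo1 stays above 2 and Ikzf3, Spib and Irf4 stay below 0.5 in every selection, while Ikzf1, Pou2af1, Pax5, Bcl11a and Lef1 lie within 1.2-fold of 1 among Dntt- or Kit-selected cells.

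The same sort offers few control cells to set beside them. Of the 58 Cd79a-positive control Kit+ cells, 22 had no contig, and 33 had IGH plus a light chain. In the 33, Foxo1 was at 52.9 CPM (28.2 to 90.5), Ikzf3 at 114, Spib at 159 and Irf4 at 28.5 CPM, and in 21 such SI cells the values were 52.04, 127, 75.2 and 46.3 CPM. Mpo was at 6981 CPM in the 33 and 3406 in the 21, and plasma cell markers summed to 2731 and 12097 CPM. Dntt had 0 and 4 UMIs in them. The part of these transcripts in the values was not tested. In the 22 with no contig, Foxo1 had 19 UMIs, 86.2 CPM (51.9 to 135), and Ebf1 221 UMIs, 1003 CPM. Ikzf3 had 4 UMIs (18.2 CPM (4.95 to 46.5)), Spib 5 (22.7 CPM (7.37 to 52.9)) and Irf4 8 (36.3 CPM (15.7 to 71.5)). The intervals of these 4 genes do not reach the deleted values, whose Foxo1 was 11.2 (7.18 to 18.6) times that of the 22 cells. In 16 of the 22, those with at least 2 Dntt UMIs, Ikzf3 had 0 UMIs and Spib 1. Against deleted cells of that selection, the ratio intervals of both genes include 1. That of Spib was 0.0149 to 3.56, and that of Ikzf3 began at 0.0234 with no upper limit. Foxo1 in the deleted cells was 11.6 (7.03 to 20.7) times that of the 16, whose Irf4 was at 38.9 CPM (15.6 to 80.2). The 22 cells held 7927 CPM of the granulocyte enzyme Mpo against 742 in the deleted cells, and granulocyte markers summed to 16993 CPM. Their part in the values was not tested. In 21 of the 22 that B-lineage markers led, Foxo1 was at 94.8 CPM and Mpo at 4278. Of the SI library, 8 such cells held 21 Foxo1 UMIs (268 CPM (166 to 409.6)), 184 of Ebf1, and 1 each of Ikzf3 and Spib.

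Within the deleted library, 7 of the 10 genes had nearly the same level with and without a heavy-chain contig. From no contig to IGH only, 0 members passed 2-fold, where 0.229% of tested genes were called higher and 0.0714% lower. The ratio was 1.03 for Ebf1, 1.03 for Pax5, 0.984 for Foxo1, 0.994 for Ikzf1, 1.02 for Pou2af1, 1.06 for Lef1 and 0.976 for Bcl11a. Irf4 had the largest ratio, 1.33 (1.12 to 1.58), on 443 and 195 UMIs. Ikzf3 and Spib, at 19 and 13 UMIs with IGH only, had intervals that include 1. With 1 cell per heavy-chain clone (614 cells with IGH only), 0 members were called on the log2(CPM + 1) scale (0.228% of tested genes higher, 0.279% lower). The log2 ratio on that scale was 0.88 for Spib, 0.71 for Irf4 and 0.53 for Ikzf3, beside -0.04, 0.35 and 0.11 over all such cells. Near or below 1 CPM the scale shrinks a ratio, so for Spib and Ikzf3 the missing call does not show a plain CPM ratio under 2-fold. Their values in this setting rest on a part of the 13 and 19 UMIs. Cell-cycle genes, which rise when the pre-B-cell receptor signals, summed to 2083 CPM with no contig and 2006 with IGH only.

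In control B220lo cells the same step went with shifts of Bcl11a, Foxo1, Lef1 and Ebf1, although again 0 members passed 2-fold (0.304% of tested genes higher, 7.22% lower). From no contig to IGH only, Bcl11a went from 193 to 119 CPM, Foxo1 from 259.5 to 182, Lef1 from 252 to 177 and Ebf1 from 2943 to 2299. Irf4 went the other way, from 180.3 to 220.1 CPM, as did Pou2af1, from 401 to 455. As a mean of each cell's CPM, Lef1 passed 2-fold (log2 ratio -1.08; 6.17% of tested genes lower). Ikzf3 and Ikzf1 had ratios of 0.987 (0.942 to 1.03) and 0.993 (0.962 to 1.02), and Pax5 and Spib of 0.908 and 0.959. Cell-cycle genes summed to 2119 and then 2948 CPM. Granulocyte markers went from 4933 to 1909.5 CPM at this step, plasmacytoid dendritic markers from 459 to 130.2 and T and NK markers from 331 to 102, and their part in it was not tested.

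With a light chain, control B220lo cells had more Ikzf3, Spib and Bcl11a, each by less than 2-fold, and less Lef1. Ikzf3 was at 493 CPM (486 to 501) against 276 CPM (266 to 286) with IGH only, a ratio of 1.79. Spib was at 521 against 281 CPM (ratio 1.86) and Bcl11a at 199 against 119 (ratio 1.68). Lef1 had a ratio of 0.609 (108 against 177 CPM), and Irf4, Ebf1, Pax5, Ikzf1 and Pou2af1 stayed within 1.2-fold. Foxo1 went from 182 to 232 CPM (ratio 1.27), a direction lost as a mean of each cell's CPM (log2 ratio -0.045). None of the 10 passed 2-fold in the main setting, where 4.83% of tested genes were called higher and 0.712% lower. Lef1 was called lower with contigs of at least 3 UMIs (log2 ratio -1.10; 1.99% of tested genes lower), and Spib higher among B lineage-like cells (1.01; 4.31% higher). Lef1 took a lower value at each step of the B220lo series, 252, 177 and 108 CPM. The thinned share of cells with a Lef1 UMI went from 27.5% to 19.8% and 12.4%. In this step plasmacytoid dendritic markers, which accompany Spib and Bcl11a elsewhere, went from 130.2 to 269.9 CPM and plasma cell markers from 498 to 3554. Cell-cycle genes went from 2948 to 1494 CPM, with 5 of 8 called lower, and Malat1 from 4556 to 7616. Their part in these values was not tested.

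The few deleted cells that did have a light chain held more Ikzf3 and Spib for their number than the other deleted cells. In the 21 with IGH plus a light chain, Ikzf3 had 17 UMIs, 120.1 CPM (69.98 to 192), Spib 12, 84.8 CPM (43.8 to 148), and Irf4 6, 42.4 CPM (15.6 to 92.3). Foxo1 in them was at 664 CPM (537 to 813), below the 951 CPM of deleted cells with IGH only and above the 232 CPM of B220lo cells in the same state. With fewer than 50 cells they gave no count of calls. Granulocyte markers summed to 198 CPM in them against 2159 with IGH only, and Mpo to 28.3 against 569, and their part in the values was not tested. All 34 deleted cells with any light-chain contig, 34 of 13992, held 20 of the 86 Ikzf3 UMIs and 12 of the 68 Spib UMIs of Cd79a-positive deleted cells, and 9 of 647 for Irf4. An Ikzf3 UMI was present in 11 of them, 32.4% (exact binomial 17.4 to 50.5%), against 0.493% of all deleted Cd79a-positive cells.

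Most of the Ikzf3 and Spib UMIs sat in 12 of the 34 cells, those that also held a UMI of Ms4a1, the CD20 antigen of later B cells. They carried 17 of the 20 Ikzf3 UMIs and 12 of the 12 Spib UMIs, but 3 of the 9 Irf4 UMIs. Foxo1 was at 704 CPM in them and 694 in all 34. A Foxo1 UMI was present in 7 of the 12, and in 22 of the 22 cells without Ms4a1, whose median was 8767 UMIs. Levels over pooled cells do not show whether the same cells held Foxo1 and Ikzf3. The 12 cells had H2-Aa, a class II antigen-presentation gene, at 2299.7 CPM, and their median was 2971 UMIs. They match the library they came from: 4 Y-linked genes were at 259 CPM with 0 Xist UMIs, and 0 barcodes were shared with another library. Whether these cells carry the deletion could not be read from the counts.

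Many of the deleted cells shared a heavy chain. The 3322 cells with IGH only fell into 614 clones (same V gene, J gene and CDR3 bases, the CDR3 being the junction that spans V, D and J), the largest of 439 cells, and 24 clones of at least 20 cells held 2302 of them. The 1680 such B220lo cells fell into 1676 clones, the largest of 2 cells. Clones with different V genes also shared the end of the CDR3. The largest clone of each of 4 V genes that end alike is shown, because many of the IGH-only cells compared above share this end. Capitals mark the last 21 bases, the length used for a grouping that was itself chosen after seeing the data. The letters aac before them are also alike in the 4 shown.
clone 1, IGHV5-2 and IGHJ2, 439 cells: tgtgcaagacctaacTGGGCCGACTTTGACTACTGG
clone 4, IGHV5-15 and IGHJ2, 167 cells: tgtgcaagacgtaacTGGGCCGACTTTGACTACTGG
clone 6, IGHV2-6-8 and IGHJ2, 105 cells: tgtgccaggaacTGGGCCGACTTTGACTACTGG
clone 7, IGHV7-1 and IGHJ2, 99 cells: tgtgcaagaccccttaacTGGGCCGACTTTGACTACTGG

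Those 21 bases closed the CDR3 of 1627 of the 3322 deleted cells (48.98%), with 21 V genes, and of 0 of the 1680 B220lo cells. A floor of 3 counts would be a share of 0.179%. The commonest end in the B220lo library, tactggtacttcgatgtctgg, was carried by 109 cells (6.49%). This pattern was noticed in the clones and then counted. Ebf1 was at 1932 CPM in cells with the shared end and 1842 in the others, Foxo1 at 930.1 and 969.7, Pax5 at 333 and 320.4, and Lef1 at 456 and 422. Ikzf3 had 10 and 9 UMIs, 1695 cells being without that end. Spib had 1 UMI with the shared end, 0.0723 CPM (0.00183 to 0.403), and 12 UMIs without it, 0.775 CPM (0.400 to 1.35).

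The 24 clones had similar levels of most members. Several of them share a CDR3 end, as shown above, so neither they nor the 614 clones can be counted as independent. Ebf1 ranged from 1257 to 2496 CPM with a median of 1815, and Pax5 from 222 to 379. Lef1 ranged from 309 to 545 CPM, above the 177 CPM of B220lo cells with IGH only in each clone. Spib did not exceed 2.21, Ikzf3 5.90 and Irf4 12.9 CPM in any of them. Foxo1 ranged from 554 to 1232 CPM with a median of 958. Its lowest value belonged to clone 4, whose 974 Foxo1 UMIs in 167 cells gave 554 CPM (519.6 to 589.7); the next lowest clone was at 819 CPM. This clone was singled out after its value was seen. Clone 4 had 1751 CPM of Ebf1, 300.2 of Pax5 and 483 of Lef1, inside the range of the other clones. With 1 cell per heavy-chain clone (614 deleted cells), the log2 ratio of Foxo1 to B220lo cells with IGH only was 2.37, beside 2.38 over all such cells, and those of Ikzf3 and Spib were -6.97 and -6.69. That of Bcl11a was 1.10, past 2-fold, beside 0.97 over all such cells. In that setting 11.8% of tested genes were higher and 10.4% lower.

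**Figure D4:**
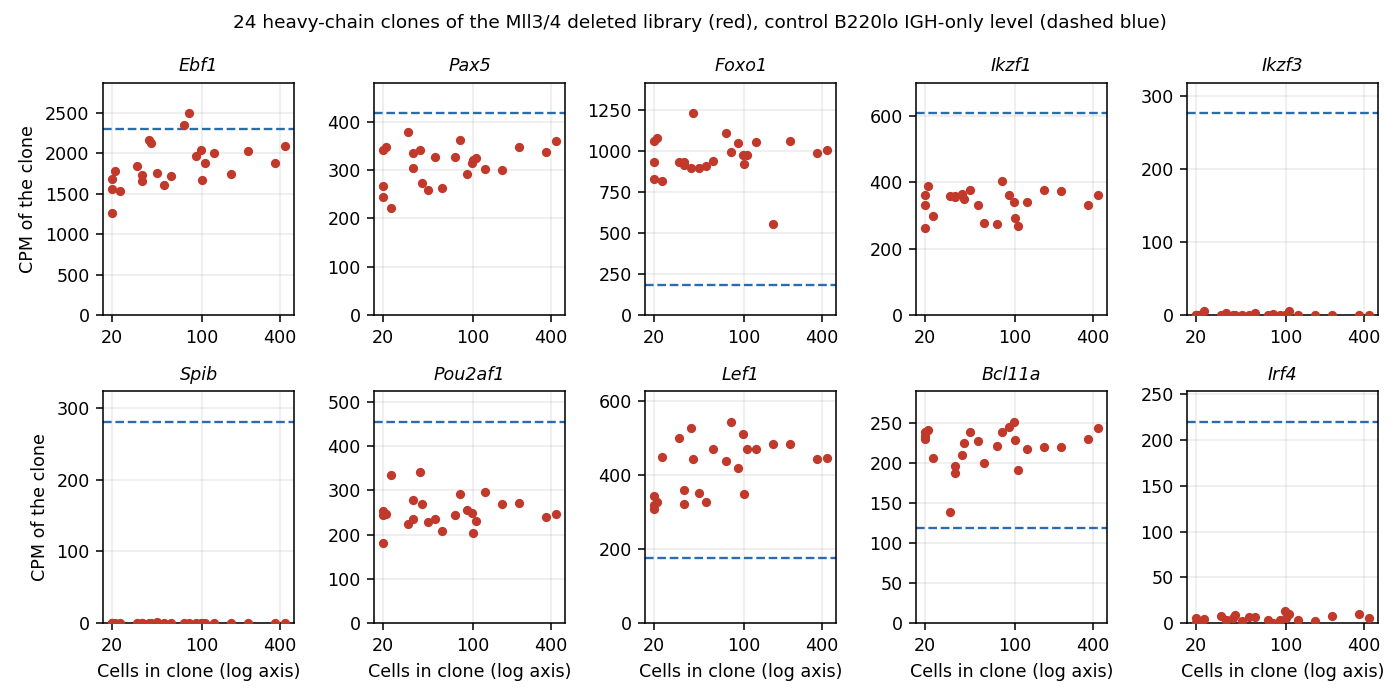
CPM of each member in the 24 deleted heavy-chain clones of 20 or more cells (red points) against clone size on a log axis; the dashed blue line is the level of control B220lo cells with IGH only. All 24 clones lie above the line for Foxo1, Lef1 and Bcl11a and near 0 for Ikzf3, Spib and Irf4, and clone 4 at 167 cells has the lowest Foxo1.

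Outside the B lineage, Ikzf1, Bcl11a and, at a lower level than in B-lineage cells, Foxo1 were detected in progenitors. Classes here are marker-based ("-like"), in cells with fewer than 2 Cd79a UMIs. In control Kit+ cells Ikzf1 was at 172 CPM in stem and progenitor-like (HSPC-like), 133 in granulocyte-like, 228 in erythroid-like and 74.6 in megakaryocyte-like cells. Bcl11a was at 130.3, 60.2, 194 and 91.5 CPM in the same order. The SI library had 185, 138, 222 and 86.2 CPM of Ikzf1. In deleted HSPC-like (64 cells) and granulocyte-like cells (463), Ikzf1 was at 159 and 112 CPM and Bcl11a at 115 and 49.5. Both genes lay within 1.3-fold of the control values in these 2 classes.

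Foxo1 lay between 3.34 and 13.3 CPM in the control Kit+ and SI classes of at least 50 cells, with 10.98 CPM in control HSPC-like and 4.68 in control granulocyte-like cells. In deleted cells of the same classes it was at 24.7 and 16.97 CPM, where Ebf1 was at 13.5 and 20.7 and Cd79a at 21.4 and 16.97, against 1.19 and 0.0236 for Ebf1 in control. Since Ebf1 and Cd79a were likewise above control in them, no expression of Foxo1 was read from these values. In the B220lo library, plasmacytoid dendritic-like cells (946) had Spib at 271 and Bcl11a at 467 CPM, and T or NK-like cells (571) had Ikzf3 at 312 and Lef1 at 133. In the deleted library 4 T or NK-like cells held 9 Ikzf3 UMIs, 367 CPM (168 to 697), so this gene was detected there outside the B lineage. In the B220lo plasmacytoid dendritic-like and T or NK-like cells, Ebf1 was at 149 and 138 CPM.

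**Figure D5:**
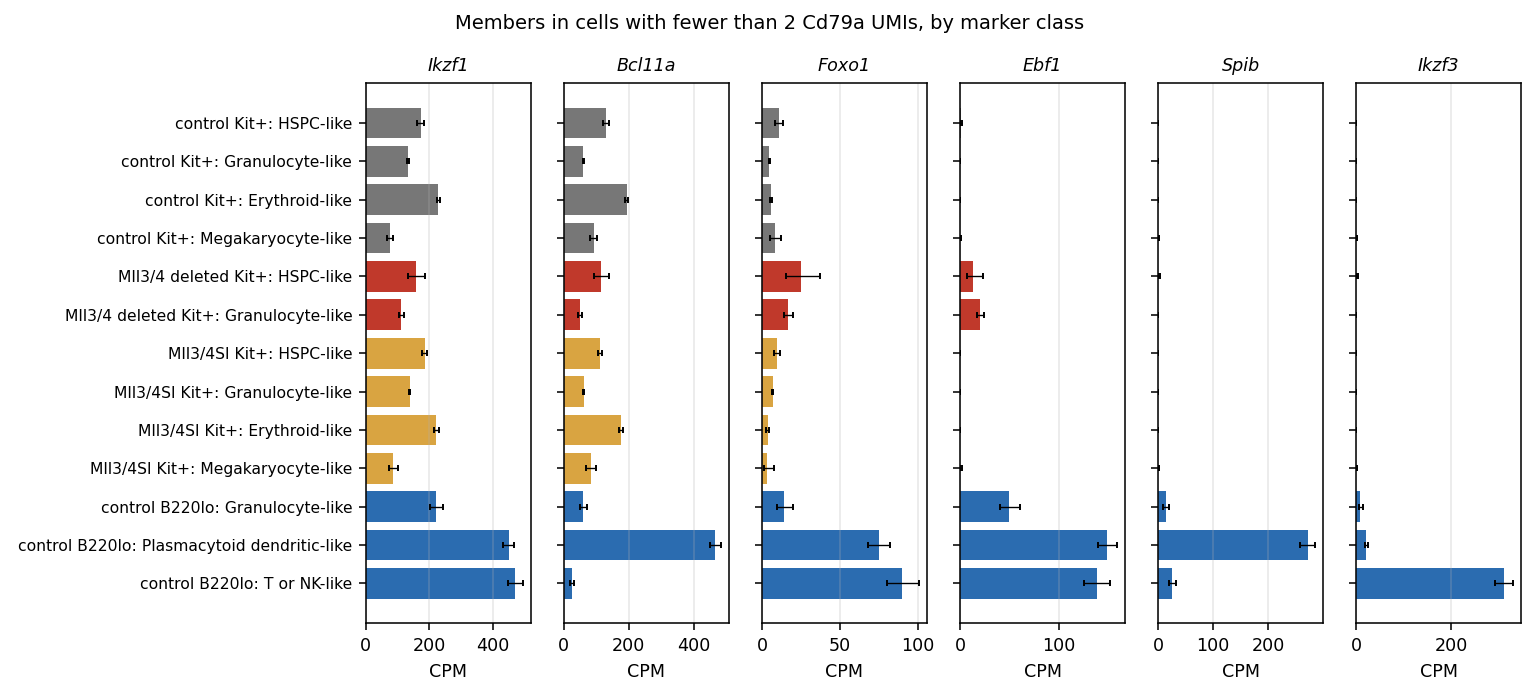
CPM of 6 members in marker-defined classes of at least 50 cells with fewer than 2 Cd79a UMIs, by library; bars start at 0 and whiskers are exact Poisson 95% intervals. Ikzf1 and Bcl11a are present in every Kit+ class shown, Spib in the plasmacytoid dendritic-like and Ikzf3 in the T or NK-like cells of the B220lo library.

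A small set of B lineage-like cells had fewer than 2 Cd79a UMIs and high CPM of several members. In the deleted library 133 such cells had Ebf1 at 13218 CPM and Foxo1 at 3533, against 1863 and 973 in the 13839 with 2 or more. Ikzf3 and Spib had 0 UMIs in them, which allows up to 8.10 CPM (3 counts). In the B220lo library 343 such cells had Ebf1 at 9095 CPM against 2522, Ikzf3 at 706 against 419 and Spib at 421 against 451. They differed in RNA make-up: ribosomal protein genes were a median of 3.52% and 2.99% of UMIs against 19.2% and 14.5%, and Malat1 was at 14984 and 12232 CPM against 4327 and 7015. These cells are not in the Cd79a-positive comparisons.

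Other genes of the pathway were counted by lists, over deleted against B220lo cells with no contig. Granulocyte, plasmacytoid dendritic, and T and NK markers were also lower in these deleted cells, as given above. Their part in the values of the lists was not tested. Of 15 other regulators of early B development, 2 were higher and 7 lower by 2-fold, beside 10% and 12.8% of all tested genes, which is the background of the other lists here too. The largest ratios were those of Irf8 (10.8 against 397 CPM), the octamer factor Pou2f2 (1.82 against 64.2 CPM), Bach2 (389.8 against 2507 CPM), a repressor of plasma-cell fate, and PU.1 (Spi1, 19.1 against 107 CPM). The 2 higher ones, named after their values were seen, were Erg (459 against 180.2 CPM) and the E-protein inhibitor Id3 (574 against 128 CPM). Of 12 B-lineage target genes, 2 were higher and 4 lower: the kinase gene Blk (0.0226 against 159 CPM), Ms4a1 (0.0451 against 128 CPM) and Cd22 (0.113 against 43.5 CPM) were low, and the surrogate light chain gene Vpreb1 was high (2720.4 against 811 CPM). The list's median log2 ratio was 0.27 for target genes and -0.80 for the other regulators.

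Of 12 regulators of other lineages, 1 was higher and 3 lower: Gata3 (15.6 against 1.85 CPM), and Tcf7 (0.0564 against 9.40 CPM), Id2 (1.87 against 20.5 CPM) and Prdm1 (0.260 against 3.30 CPM). Of 8 cell-cycle genes 0 passed 2-fold in either direction. From no contig to IGH only within the deleted library, 0 of the 42 genes of these 4 lists that could be tested were called, beside 0.229% higher and 0.0714% lower of all tested genes. Over the same step in B220lo cells, 0 were higher and 10 of 43 lower, beside 7.22% of all tested genes, among them Erg (21.6 against 180.2 CPM) and Gata2 (0.192 against 2.68 CPM).

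As a description, the 3 genes whose CPM tracked each member best across 10 groups of cells were listed, by Pearson r of log2 values over 13001 genes with at least 500 UMIs. For Ebf1 they were Gfra1 (0.995), the adaptor Blnk (0.987) and Rcan2 (0.984), and for Pax5 Sorcs2 (0.996), 1700027J07Rik (0.993) and Gfra1 (0.992). Foxo1 had Nedd9 (0.995), Tmem132e (0.994) and Tmem108 (0.987), and Lef1 had Tmem108 (0.996), Rag1 (0.993) and Tmem132e (0.993). Ikzf1 had Epc1 (0.995), Prkcb (0.993) and Tubb2b (0.993), and Bcl11a had Gimap8 (0.969), Rnpepl1 (0.967) and Tmem154 (0.964). For Ikzf3 they were Pim2 (0.999), Rasgrp1 (0.998) and Cd2 (0.998), and for Spib Agbl1 (0.999), Gpcpd1 (0.998) and Myzap (0.998). Pou2af1 had 1700027J07Rik (0.995), Akap12 (0.994) and Slamf6 (0.994), and Irf4 had Cpm (0.997), a carboxypeptidase gene, Slc30a4 (0.995) and Arl5a (0.995). The 10 groups share libraries, depths and sorts.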

How the data were processed

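The files are UMI count matrices of 32285 genes and tables of assembled receptor contigs. Per the submitters' processing notes, counts came from Cell Ranger 7.1.0 on mm10; the counting options are not given in the sources used here. The deposited counts were not normalized. Cells with at least 1000 UMIs, 500 genes and at most 10% mitochondrial UMIs were kept. Total counts per library ran from 85445426 to 166327773 UMIs. Doublets were kept in the main values, since Scrublet marked 1166, 0, 1 and 0 cells at its own threshold. Removing scores of 0.25 or more was an alternative. Among the 6814 B220lo cells with IGH plus a light chain, 685 had more than 1 IGH contig. Removing barcodes with more than 1 IGH or more than 2 light-chain contigs was another alternative. B-lineage cells had at least 2 Cd79a UMIs, and their state came from the deposited contigs of the same barcode.

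UMIs were summed per library and state and scaled to CPM, with exact Poisson intervals for levels, exact conditional binomial intervals for ratios and exact binomial (Clopper-Pearson) intervals for shares. These cover counting error only. A gene was tested with at least 50 UMIs over both sides and called at a log2((CPM + 1)/(CPM + 1)) of at least 1 in size. Shares were taken after each cell was thinned to 2000 UMIs. A cell was named X-like when at least 3 markers of a class had 2 or more UMIs and no other class had as many. The rule was to name all 10 members per comparison, up to 4 examples per context list, and the 3 genes most like Ebf1 and Pax5, which was extended to the other members. Narrower selections and cell classes name only some members, and Erg and Id3 were added after their values were seen. Members and lists were chosen with earlier results of these data known. The selections on Dntt, Kit and B-lineage markers, the removal of shared barcodes and the grouping by CDR3 end were chosen after seeing the data. Promoter sequences are from RefSeq (GRCm38.p6), and gene positions from GENCODE M21. Python 3.11.15, numpy 2.4.6, scipy 1.17.1, pandas 2.3.3 and scanpy 1.11.5 were used.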

Additional observations from a re-analysis of the deposited data

Results flagged for a closer look

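For 3 of the 10 genes the step from no contig to IGH only had opposite directions in the deleted and the control B220lo library, with both 95% intervals off 1. The CPM ratio was 1.03 in deleted and 0.781 in B220lo cells for Ebf1, 1.03 and 0.908 for Pax5, and 1.06 and 0.703 for Lef1. Ikzf3, at 1.22 and 0.987, had intervals that include 1 on both sides. Other settings ended the opposition for Ebf1 and Pax5. With 1 cell per heavy-chain clone the deleted Ebf1 log2 ratio was -0.055. The deleted Pax5 log2 ratio was -0.002 as a mean of each cell's CPM, and that of B220lo Pax5 was 0.113 with Cd79a of at least 1 UMI. Lef1 kept its opposite directions under the 14 other settings. With 1 library on each side, the difference between the libraries was not tested. In B220lo cells granulocyte, plasmacytoid dendritic, and T and NK markers were all lower with IGH only than with no contig, and their part in these values was not tested.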

How the results depend on the processing

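Of 88 counts of called members recomputed under other settings, 84 stayed within 1.5 times the main count and 4 did not. Each count pools higher and lower calls, so a change of direction would not show in it. Single values moved more: 315 log2 ratios of members left the main interval and 557 stayed in it, 19 levels by class left it and 181 stayed, and all 20 thinned shares moved at 1000 UMIs per cell. With a pseudocount of 10 CPM, 5 members were called between the deleted and control Kit+ libraries, not 8, where 4.94% of tested genes were higher and 3.38% lower. In B220lo cells, where the main count was 0, 1 member was lower from no contig to IGH only as a mean of each cell's CPM (6.17% of tested genes lower). From IGH only to IGH plus light chain, 1 was lower with contigs of at least 3 UMIs (1.99% lower) and 1 higher among B lineage-like cells by markers (4.31% higher). The cause was not tested. Foxo1 in cells with no contig kept a log2 ratio of 1.59 to 2.02 over 16 other settings, while Lef1 ran from -0.19 to 0.90 Ikzf1 from -1.02 to 0.00 and Pou2af1 from -0.92 to 0.20. With IGH only the range was 1.79 to 2.49 for Foxo1, 1.21 to 2.02 for Lef1, 0.90 to 1.14 for Bcl11a and -1.04 to -0.78 for Pou2af1. Comparisons with the 21 deleted cells that had IGH plus a light chain, and the Dntt and Kit selections with IGH only, fell under 50 cells and gave no count of calls. No paired analysis was possible because each group has 1 library.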
